A study of Homo sapiens with 24 samples.

Results

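WDR77, its enzyme partner PRMT5 and 3 further genes of the methylosome, CLNS1A, RIOK1 and COPRS, were followed through RNA-seq read counts of LNCaP cells, an androgen-responsive line from a human prostate cancer. The 5 genes were chosen by symbol, taking the row with the largest total count where a symbol was repeated, and are 5 of the 60649 features in the count table. All 5 passed the filter on low counts in both studies.

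In study 1, LNCaP cells were transiently transfected with a construct encoding WDR77-peptide 3 (P3) or with empty vector (EV), and in study 2 with siRNA against WDR77 (siWDR77) or with a non-targeting siRNA (siCtrl). All wells were then kept in medium without androgen, and cells received 5 nM R1881, a synthetic androgen, or ethanol as vehicle for 48 h. The 8 groups were P3_R1881, P3_vehicle, EV_R1881, EV_vehicle, siWDR77_R1881, siWDR77_vehicle, siCtrl_R1881 and siCtrl_vehicle, each with 3 libraries that the design text calls biological triplicates. The sources used here give neither the promoter of the P3 construct nor the sequences of the siRNAs, and siRNA and construct were each set against their own control only.

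PRMT5 is the main type II arginine methyltransferase: it places symmetric dimethyl marks on arginines of histones, Sm proteins of the spliceosome and other RNA-binding proteins. It works in a complex with WDR77 (also called MEP50), a WD-repeat protein that binds substrates and is also known for a part in androgen-driven transcription. The complex takes its substrates from adaptors that compete for it: CLNS1A (pICln) brings Sm proteins, the atypical kinase RIOK1 brings nucleolin, and COPRS directs PRMT5 to histones on chromatin.

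The libraries held 16665915 to 24260446 counts in genes, and the text calls a library by the sample number in its title (S1 to S38). The prostate luminal marker HOXB13 was present in every library (432 to 592 CPM, read counts scaled to library size). Of the markers of other cell types, KRT5 was at 0 in 23 libraries, TP63 in 21, PTPRC and PECAM1 in 20 each and CD3E in 24, while KRT14 reached 9.79 CPM, COL1A1 24.4 CPM and VWF 18.5 CPM. KLK3, an androgen-induced gene, stood higher with R1881 in every arm. In vehicle it was lower throughout study 2 (52.6 to 206 CPM) than in study 1 (1286 to 1978 CPM; the studies were scaled apart). The library siCtrl_vehicle S35 stood apart, with 52.6 CPM of KLK3 and 8.4% of its counts from mitochondrially encoded genes, against 5.15% to 6.3% in the other libraries. Since RNA came from whole wells, fewer cells of a type and less RNA per cell cannot be told apart.

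WDR77 (ENSG00000116455) occupies bases 111439890 to 111449376 of chromosome 1 in GENCODE 29 (GRCh38), minus strand. It stands head to head with ATP5PB, which encodes a subunit of ATP synthase. Their annotated exons share 350 bases, 12.5% of the WDR77 exon bases. ATP5PB had 113786 counts in all, against 24058 for WDR77. Without a stated strand setting, reads of ATP5PB and WDR77 cannot be told apart in the shared bases. In RefSeq (GRCh38.p14) the start sites lie 207 bases apart, at 111449256 for WDR77 and 111449464 for ATP5PB, so both genes start from the edges of the same interval. That interval, chr1:111449257-111449463 on the minus strand, is shown because WDR77 rose with R1881 in P3 cells, where ATP5PB was not called. Capitals mark the palindrome TCTCGCGAGA. The PRMT5 sequence, the 250 bases before its RefSeq start at chr14:22929377-22929626 on the minus strand, is shown beside it because WDR77 rose with R1881 in P3 cells and PRMT5 was not called there. In it, capitals mark CCAAT, read on either strand.
WDR77: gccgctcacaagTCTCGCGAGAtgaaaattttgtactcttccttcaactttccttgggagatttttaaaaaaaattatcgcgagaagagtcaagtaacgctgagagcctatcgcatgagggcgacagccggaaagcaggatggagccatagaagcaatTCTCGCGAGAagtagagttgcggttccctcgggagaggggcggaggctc
PRMT5: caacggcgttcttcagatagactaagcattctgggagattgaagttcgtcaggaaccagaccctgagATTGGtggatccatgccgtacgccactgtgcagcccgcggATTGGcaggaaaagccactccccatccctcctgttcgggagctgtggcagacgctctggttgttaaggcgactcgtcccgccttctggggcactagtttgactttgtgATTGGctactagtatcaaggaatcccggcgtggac
TCTCGCGAGA occurred at 2 places in the WDR77 interval, and 0.342% of 35116 RefSeq promoters held it in a window of the same length. It occurred in none of the 250-base windows of PRMT5, CLNS1A, RIOK1 and COPRS. CCAAT, searched on both strands, occurred at 3 places in the PRMT5 window and in none of the other members' windows, while 32.0% of all promoters held it. Among the longest runs of letters found at more than 1 place in the WDR77 interval, TCTCGCGAGA is the one that reads the same on both strands, and CCAAT was chosen after the PRMT5 letters had been read. These matches describe letters only and are not binding sites.

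The siRNA left 21.7% of WDR77 in R1881 (95% interval 19% to 24.8%) and 29.5% in vehicle (25.8% to 33.6%). In R1881 the siWDR77 libraries held 326, 252 and 271 counts of WDR77 (15.6, 13.4 and 13.8 CPM), against 1228, 1236 and 1003 counts in siCtrl (67.3, 66.1 and 63.8 CPM). In vehicle the siWDR77 libraries held 397, 298 and 208 counts (14.9, 13.3 and 11.3 CPM), against 941, 1029 and 1035 counts in siCtrl (46.7, 46.6 and 41.7 CPM). The groups did not overlap in either medium, and the highest siWDR77 library lay far below the lowest siCtrl library. The log2 fold changes were -2.2 ± 0.093 in R1881 and -1.76 ± 0.093 in vehicle (SE; edgeR adjusted p = 8.47e-14 and 5.74e-12). Without siCtrl_vehicle S35 the vehicle value was -1.73 (edgeR adjusted p = 3.14e-13). ATP5PB did not pass the test in either medium (0.0069 and 0.064, edgeR adjusted p = 0.968 and 0.709).

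**Figure D1:**
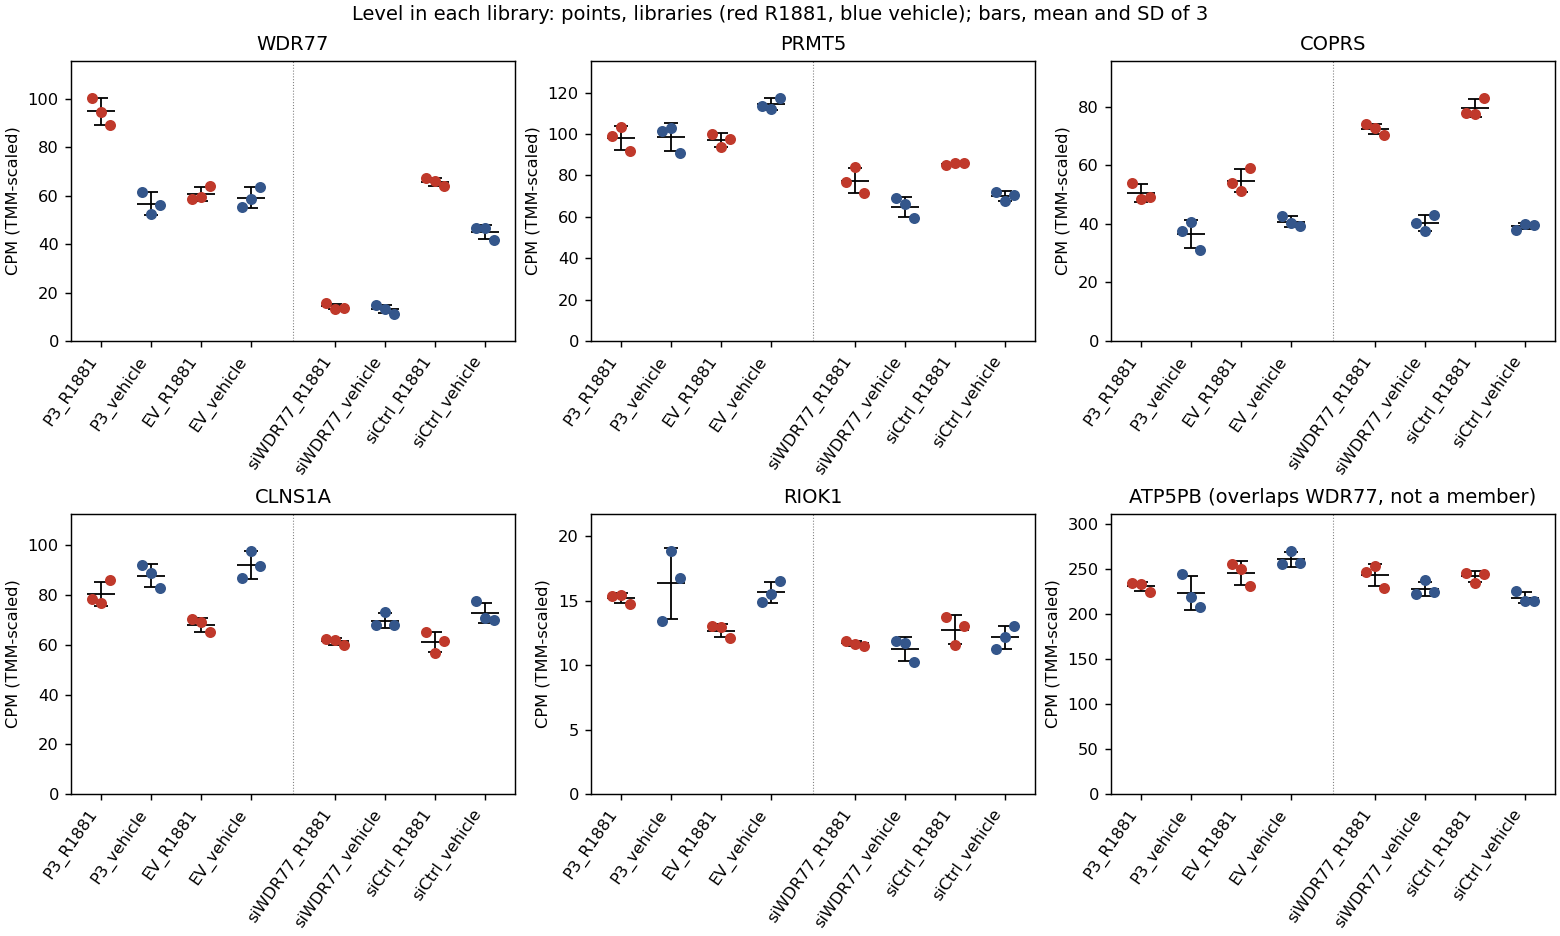
Level of each member and of ATP5PB (CPM, TMM-scaled within each study; linear axes from 0) in the 24 libraries. Points are libraries, R1881 in red and vehicle in blue, and bars are the mean and SD of 3; WDR77 stands at 11.3 to 15.6 CPM in all 6 siWDR77 libraries and at 89.3 to 100.5 CPM in P3_R1881.

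None of the 4 partners passed the test after the siRNA, so WDR77 was the 1 member called in each medium. Among all genes tested, 7.22% were called in R1881 and 1.53% in vehicle. PRMT5 stood at 76.7, 83.9 and 71.7 CPM in siWDR77_R1881, against 85.1, 86.1 and 85.8 CPM in siCtrl_R1881. Its libraries did not overlap between these groups, yet the difference of -0.15 (95% interval -0.29 to -0.0053) was not called (edgeR adjusted p = 0.215). In vehicle its difference was -0.11 (-0.25 to 0.027; edgeR adjusted p = 0.522). For CLNS1A the differences were 0.0056 (-0.13 to 0.14) in R1881 and -0.062 (-0.20 to 0.073) in vehicle (edgeR adjusted p = 0.981 and 0.781). For RIOK1 they were -0.12 (-0.37 to 0.12) and -0.11 (-0.35 to 0.13), the widest intervals of the set, since it had the fewest counts (edgeR adjusted p = 0.613 and 0.788). COPRS was 74.1, 73.0 and 70.5 CPM in siWDR77_R1881, against 77.8, 77.7 and 83.2 CPM in siCtrl_R1881. These groups did not overlap, and the difference of -0.13 (-0.27 to 0.00025) was not called (edgeR adjusted p = 0.236). The lowest bound of any partner was 77.4% of siCtrl (RIOK1 in R1881), and that of PRMT5 was 82%.

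**Figure D2:**
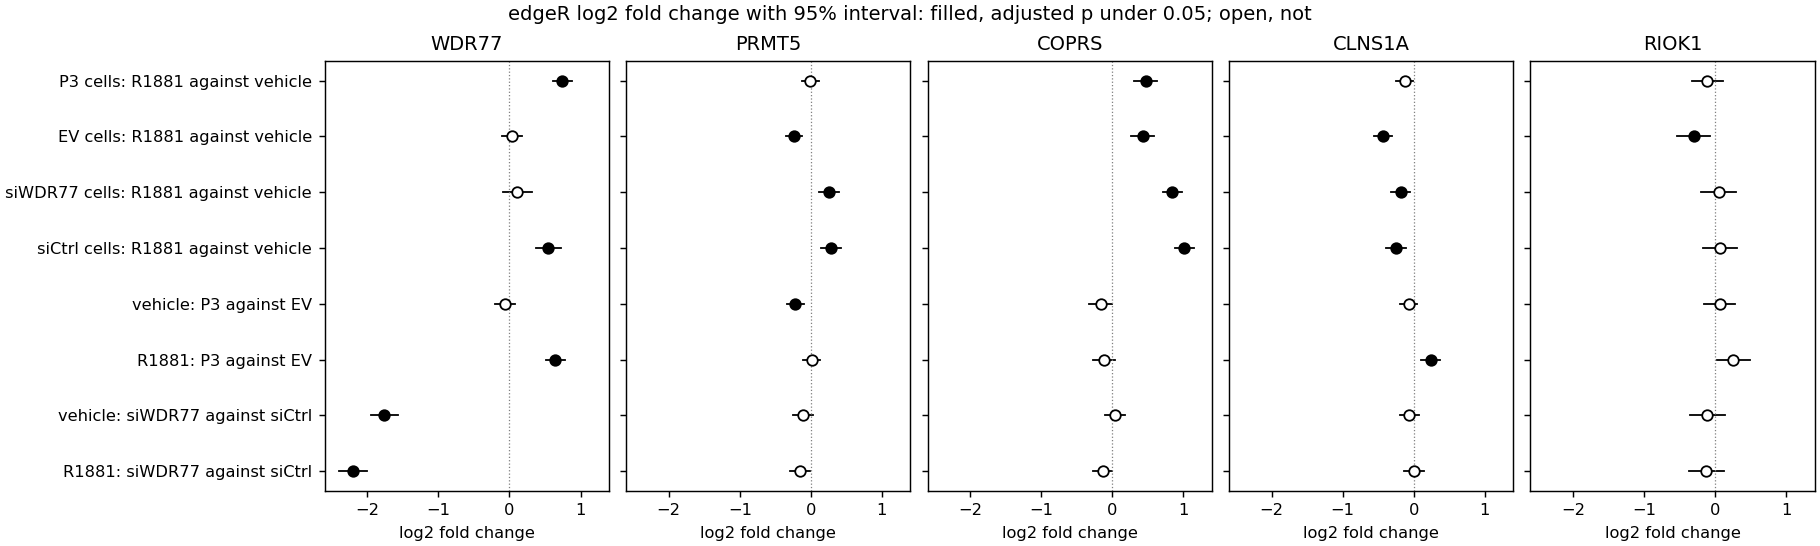
Log2 fold change of each member in the 8 comparisons between 2 groups (x axis, log2; the first-named group over the second). Lines are 95% intervals from the edgeR fit, and filled points have an adjusted p under 0.05; with siRNA, WDR77 at -2.2 and -1.76 is the 1 filled member in each medium.

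With R1881, WDR77 was called in P3 and siCtrl cells and not in EV and siWDR77 cells. In P3 cells it had 2080, 1692 and 1555 counts in R1881 (100.5, 94.7 and 89.3 CPM), against 1212, 1197 and 1342 counts in vehicle (61.6, 52.3 and 56.2 CPM). The P3 groups did not overlap, and WDR77 rose by 0.74 ± 0.067 on the log2 scale (1.68-fold, 95% interval 1.53 to 1.84; edgeR adjusted p = 5.36e-12). In EV cells the CPM were 58.8, 59.4 and 64.0 in R1881, against 55.1, 58.8 and 63.6 in vehicle, and the groups overlapped (0.037 ± 0.069, edgeR adjusted p = 0.68). The response of P3 cells exceeded that of EV cells by 0.71 ± 0.096 on the log2 scale (1.63-fold, 95% interval 1.43 to 1.87; edgeR adjusted p = 1.83e-07). In this test of the difference 3 of the 5 members were called, all with a higher value in P3, while 22.6% of all genes tested were called in either direction. Of the 3 members, WDR77 rose in P3 cells, while PRMT5 and CLNS1A fell in EV cells and were not called in P3 cells. The androgen targets KLK3 and FKBP5, a co-chaperone gene, had a smaller rise in P3 than in EV cells. Their differences were -1.2 ± 0.067 and -1.54 ± 0.071 (edgeR adjusted p = 1.2e-17 and 4.87e-20). How the members' differences relate to this smaller response was not tested. WDR77 in P3_vehicle did not pass the test against EV_vehicle (-0.063 ± 0.068, edgeR adjusted p = 0.572), and whether transcripts of the construct were counted as WDR77 was not tested. ATP5PB was not called in P3 cells with R1881 (0.044 ± 0.055, edgeR adjusted p = 0.653). It was called in 2 of these comparisons, lower in P3_vehicle than in EV_vehicle (-0.22 ± 0.055, edgeR adjusted p = 0.00416) and higher with R1881 in siCtrl cells (0.15 ± 0.055, edgeR adjusted p = 0.0278).

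PRMT5 had no detectable response to R1881 in P3 cells, where it stood at 98.9, 103 and 91.9 CPM in R1881 and at 102, 103 and 90.7 CPM in vehicle (-0.0057, 95% interval -0.13 to 0.11; edgeR adjusted p = 0.966). In EV cells it was 100.1, 93.6 and 97.4 CPM in R1881, against 114, 112 and 118 CPM in vehicle. These groups did not overlap, and PRMT5 fell by 0.24 ± 0.059 on the log2 scale (edgeR adjusted p = 0.000798). The difference between the arms was 0.23 ± 0.083 (edgeR adjusted p = 0.0397), a call that was lost with RLE size factors (0.0735), with DESeq2 (0.0846) and in the fit over 24 libraries (0.0844). It was also lost without any of 7 of the 12 libraries (EV_vehicle S1 and S29, EV_R1881 S2, P3_vehicle S5 and S33, P3_R1881 S20 and S34; edgeR adjusted p = 0.0623 to 0.244). In R1881, PRMT5 was not called in P3 against EV cells (0.015 ± 0.060, edgeR adjusted p = 0.876). Most of the difference lay in vehicle, where P3 cells had less PRMT5 than EV cells (-0.22 ± 0.058, edgeR adjusted p = 0.00874). That was the 1 member called there, against 15.8% of all genes tested, and it was lost without EV_vehicle S29 (edgeR adjusted p = 0.0652), without P3_vehicle S5 (0.0884) and without TMM factors (0.0867).

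CLNS1A, the Sm-protein adaptor, fell in EV cells and was not called in P3 cells. In EV cells it had 70.3, 69.0 and 65.0 CPM in R1881, against 86.9, 97.9 and 91.7 CPM in vehicle, with no overlap (-0.44 ± 0.063, edgeR adjusted p = 1.36e-07). In P3 cells it had 78.3, 76.8 and 86.0 CPM in R1881 and 91.9, 88.9 and 82.7 CPM in vehicle; the groups overlapped and it was not called (-0.13 ± 0.062, edgeR adjusted p = 0.149), although without TMM factors it was (-0.22, edgeR adjusted p = 0.00621). The response of P3 cells was higher than that of EV cells by 0.31 ± 0.088 (edgeR adjusted p = 0.00796). Set against EV in R1881, P3 cells had more CLNS1A (0.24 ± 0.063, edgeR adjusted p = 0.00268) and more WDR77 (0.64 ± 0.068, edgeR adjusted p = 2.31e-10). These were the 2 members called there, against 37% of all genes tested; without TMM factors PRMT5 (0.17, edgeR adjusted p = 0.0121) and RIOK1 (0.42, edgeR adjusted p = 0.00387) were called as well.

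RIOK1, the nucleolin adaptor, was called once in the 10 planned comparisons. In EV cells it had 13, 12.9 and 12.1 CPM in R1881, against 14.9, 15.5 and 16.5 CPM in vehicle. The groups did not overlap, and it fell by 0.30 ± 0.11 (edgeR adjusted p = 0.0253). The call was lost with DESeq2 (adjusted p = 0.1) and without any of 4 of the 6 EV libraries (EV_vehicle S15 and S29, EV_R1881 S2 and S30; edgeR adjusted p = 0.0514 to 0.122). In P3_R1881 it stood at 15.4, 15.4 and 14.8 CPM, above every EV_R1881 library, and the difference of 0.26 ± 0.12 was not called (edgeR adjusted p = 0.0749).

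COPRS, the chromatin adaptor, was the 1 member that rose with R1881 in all 4 arms. It had 54.0, 48.5 and 49.2 CPM in P3_R1881, against 37.7, 40.6 and 31.3 CPM in P3_vehicle (0.47 ± 0.079, edgeR adjusted p = 1.11e-05). In EV cells it had 54.1, 51.3 and 59.1 CPM in R1881, against 42.8, 40.4 and 39.2 CPM in vehicle (0.43 ± 0.079, edgeR adjusted p = 1.56e-05). No R1881 library of study 1 overlapped the vehicle libraries of its arm. In siWDR77 cells it had 74.1, 73.0 and 70.5 CPM in R1881, against 40.3, 37.6 and 43.0 CPM in vehicle (0.85 ± 0.066, edgeR adjusted p = 6.48e-11). In siCtrl cells it had 77.8, 77.7 and 83.2 CPM in R1881, against 38.1, 40.1 and 39.7 CPM in vehicle (1.02 ± 0.067, 2.02-fold; edgeR adjusted p = 2.42e-12). The R1881 libraries of study 2 thus lay clear of all vehicle libraries in both arms. The rise did not pass the test of a difference between P3 and EV cells (0.045, 95% interval -0.18 to 0.27) or between siWDR77 and siCtrl cells (-0.17, -0.36 to 0.024). Without TMM factors the rise was smaller and called in all 4 arms, at 0.38 in P3, 0.26 in EV, 0.55 in siWDR77 and 0.76 in siCtrl cells.

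In all, R1881 called 2 of 5 members in P3 cells (2 higher), against 21% of all genes tested, and 4 of 5 in EV cells (1 higher, 3 lower), against 51.4%. In siWDR77 cells 3 of 5 were called (2 higher, 1 lower), against 53.2% of all genes, and in siCtrl cells 4 of 5 (3 higher, 1 lower), against 51.1%. In siWDR77 cells the share of members was near that of all genes, and counts over 5 members do not set them apart from other genes in the other arms. Without TMM factors 3 members were called in P3, 4 in EV, 2 in siWDR77 and 3 in siCtrl cells.

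In the siRNA study PRMT5 rose with R1881 in both arms, a call that held with RLE size factors and with DESeq2 and was lost with unscaled library totals. It stood at 76.7, 83.9 and 71.7 CPM in siWDR77_R1881, against 68.9, 66.1 and 59.3 CPM in siWDR77_vehicle (0.26 ± 0.068, edgeR adjusted p = 0.00275). In siCtrl cells it stood at 85.1, 86.1 and 85.8 CPM in R1881, against 72.1, 67.6 and 70.7 CPM in vehicle (0.29 ± 0.068, edgeR adjusted p = 0.000986). The groups did not overlap in either arm. With library totals alone the values were -0.042 (edgeR adjusted p = 0.617) and 0.026 (0.759), and neither was called. The TMM factors were 0.893 to 0.932 in the R1881 libraries and 1.07 to 1.11 in the vehicle libraries of study 2, and leaving them out moved the median of all genes to -0.312 in siWDR77 and -0.305 in siCtrl cells. CLNS1A fell in both arms (-0.18 ± 0.066 in siWDR77 and -0.25 ± 0.066 in siCtrl cells, edgeR adjusted p = 0.0231 and 0.00276), and its call in siWDR77 cells was lost with no filter (0.0698) and without siWDR77_vehicle S37 (0.117) or siWDR77_R1881 S38 (0.0773). RIOK1 was not called (0.051 and 0.069).

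Whether the WDR77 left by the siRNA responded to R1881 as in siCtrl cells was tested as a difference, which was not called. WDR77 changed by 0.11 ± 0.098 in siWDR77 cells (95% interval -0.096 to 0.31; edgeR adjusted p = 0.378) and rose by 0.55 ± 0.085 in siCtrl cells (edgeR adjusted p = 7.1e-06). Without TMM factors these values were -0.19 (edgeR adjusted p = 0.0989) and 0.29 (0.00578). The difference in response was -0.44 ± 0.13, with an unadjusted p of 0.00248 and an edgeR adjusted p of 0.294; over its alternatives the adjusted p ran between 0.12 and 0.638. In this test of the difference 0 of 5 members and 0% of all genes were called by edgeR; 1484 genes had an unadjusted p under 0.05, and DESeq2 called 56 genes. The calls came to 112 with no filter, 40 in the fit over 24 libraries and 43 without siCtrl_vehicle S35, and WDR77 was called in none of these.

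The control arms of the 2 studies differed in how the members responded to R1881. This comparison was added after the data were seen, and its arms differ in study and in transfected material, which cannot be told apart. Set against EV cells, siCtrl cells had a higher response of WDR77 (0.53 ± 0.11), PRMT5 (0.54 ± 0.092) and COPRS (0.61 ± 0.11), with edgeR adjusted p of 0.000546, 3.97e-05 and 6.63e-05. These 3 of 5 members stand against 16.8% of all genes called. ATP5PB was called here too (0.25 ± 0.080, edgeR adjusted p = 0.0252). PRMT5 went in opposite directions, lower with R1881 in EV cells and higher in siCtrl cells, although without TMM factors the rise in siCtrl cells was lost; the difference itself was still 0.43 (edgeR adjusted p = 0.000543). CLNS1A (0.20 ± 0.092) was not called (edgeR adjusted p = 0.129). Androgen targets also differed: KLK3 had a response 3.32 ± 0.46 higher and FKBP5 1.01 ± 0.15 higher in siCtrl than in EV cells (edgeR adjusted p = 8.33e-05 and 0.000143). KLK3 stood at 7655 to 8007 CPM in siCtrl_R1881 and at 6431 to 7221 CPM in EV_R1881. In vehicle it stood at 52.6 to 204 CPM in siCtrl and at 1286 to 1389 CPM in EV (the studies were scaled apart). The part of KLK3 and FKBP5 in the members' result was not tested.

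Within a library, a ratio of members needs no scaling between libraries. Counts per exon base of WDR77 over those of PRMT5 gave 1.2 ± 0.065 in P3_R1881 (SD, n = 3), 0.714 ± 0.075 in P3_vehicle, 0.774 ± 0.044 in EV_R1881 and 0.639 ± 0.035 in EV_vehicle. P3_R1881 was the 1 group whose mean was above 1, and with the longest annotated transcript as length its mean was 0.951 ± 0.049 and no group was above 1. In study 2 the ratio was 0.229 ± 0.028 in siWDR77_R1881, 0.25 ± 0.016 in siWDR77_vehicle, 0.949 ± 0.029 in siCtrl_R1881 and 0.794 ± 0.061 in siCtrl_vehicle. For this pair R1881 lay above vehicle without overlap in P3, EV and siCtrl cells (log2 differences 0.749, 0.277 and 0.26). In siWDR77 cells the groups overlapped (-0.136). COPRS over PRMT5 was 2.28 ± 0.15 in siWDR77_R1881 and 1.52 ± 0.21 in siWDR77_vehicle, and 2.25 ± 0.087 in siCtrl_R1881 and 1.36 ± 0.080 in siCtrl_vehicle. In study 1 it was 1.25 ± 0.099 in P3_R1881 and 0.895 ± 0.060 in P3_vehicle, and 1.37 ± 0.087 in EV_R1881 and 0.864 ± 0.053 in EV_vehicle. The R1881 libraries lay above the vehicle libraries in all 4 arms. With 3 libraries against 3 the two-sided exact permutation test cannot go below 0.1, and 0.178 was the smallest value after adjustment over 32 such tests. CLNS1A over PRMT5 was 0.622 ± 0.075 in P3_R1881 and 0.674 ± 0.020 in P3_vehicle, with overlap, and 0.531 ± 0.027 in EV_R1881, against 0.609 ± 0.045 in EV_vehicle, without overlap. In study 2 it was 0.601 ± 0.037 in siWDR77_R1881, against 0.815 ± 0.062 in siWDR77_vehicle, and 0.539 ± 0.039 in siCtrl_R1881, against 0.783 ± 0.032 in siCtrl_vehicle, without overlap in either arm.

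**Figure D3:**
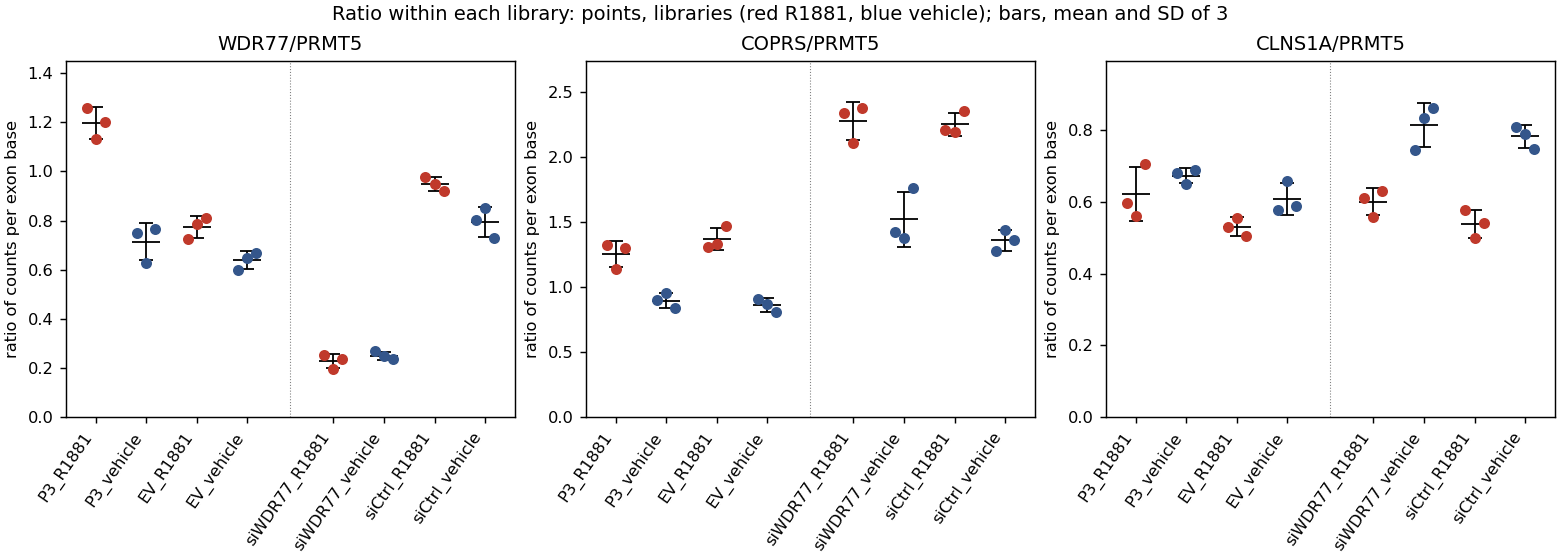
Ratio of counts per exon base within each library (linear axes from 0) for 3 pairs of members. Points are libraries, R1881 in red and vehicle in blue, and bars are the mean and SD of 3; the WDR77/PRMT5 mean is 1.2 in P3_R1881 and 0.229 in siWDR77_R1881.

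Per length, the members kept a wide range. In EV_vehicle PRMT5 had 33 ± 0.827 CPM per kb of exon (SD, n = 3), COPRS 28.5 ± 1.27, WDR77 21.1 ± 1.51, CLNS1A 20.1 ± 1.2 and RIOK1 4.83 ± 0.247. WDR77 and CLNS1A, neighbours in this order, differed by less than their spread. In P3_R1881 COPRS (35.3 ± 2.10) and WDR77 (33.8 ± 2.01) stood above PRMT5 (28.3 ± 1.66) and differed from each other by less than their spread. By the longest annotated transcript PRMT5 (38.7) stood above WDR77 (36.8) in that group. In siCtrl_R1881 COPRS led at 55.6 ± 2.2, followed by PRMT5 at 24.7 ± 0.144 and WDR77 at 23.4 ± 0.626. In siWDR77_R1881 WDR77 stood at 5.08 ± 0.416, next to RIOK1 at 3.61 ± 0.0589. WDR77 was above CLNS1A in 6 of the 8 groups by total exon length and in 3 by the longest annotated transcript.

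Across all 24 libraries, with the mean of each study taken out, CLNS1A and COPRS had the strongest relation among the members (Pearson r = -0.732), followed by COPRS and PRMT5 (0.539). WDR77 and PRMT5 had r = 0.392. The libraries share the hormone contrast and the siRNA contrast, so these values describe the groups as much as the genes. Among 17235 other genes, those most like WDR77 were RNF216 (r = 0.897), UNC45A (0.879), EPPK1 (0.874), ISG20L2 (0.873) and EPB41 (0.871), all over 24 libraries. Those most like PRMT5 were MRPS16 (0.927), PPM1G (0.927), SLC25A5 (0.915), HNRNPF (0.913) and FARSA (0.906).

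The genes around the methylosome were taken from 4 lists: the Sm and LSm ring (11 genes), the SMN complex that loads Sm proteins onto small nuclear RNAs (10), methyl donor and methylthioadenosine metabolism (7) and other partners and substrates of PRMT5 (17). In the Sm and LSm ring no gene was called with R1881 in P3 cells (median log2 fold change -0.13, against -0.0203 over all genes), while 9 fell and 1 rose in EV cells (median -0.45, against -0.0415). Of all genes 21% were called in P3 and 51.4% in EV cells. SNRPF (-0.79 ± 0.090, edgeR adjusted p = 1.26e-09) and SNRPG (-0.62 ± 0.089, edgeR adjusted p = 1.33e-07), core proteins of the ring, had the smallest adjusted p in EV cells. Both had a higher response in P3 than in EV cells, by 0.66 ± 0.13 and 0.59 ± 0.13 (edgeR adjusted p = 9.99e-05 and 0.000349), among 5 of the 11 genes called for this difference, all higher in P3 (22.6% of all genes). In siWDR77 cells 1 of the 11 rose and 3 fell, and in siCtrl cells 2 rose and 1 fell, against 53.2% and 51.1% of all genes called; LSM10, a U7-specific ring protein gene, rose in both (0.67 ± 0.076 and 0.81 ± 0.077, edgeR adjusted p = 4.67e-08 and 2.31e-09). Without TMM factors 5 fell in P3 cells, 9 in EV cells, 8 in siWDR77 cells and 7 in siCtrl cells.

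**Figure D4:**
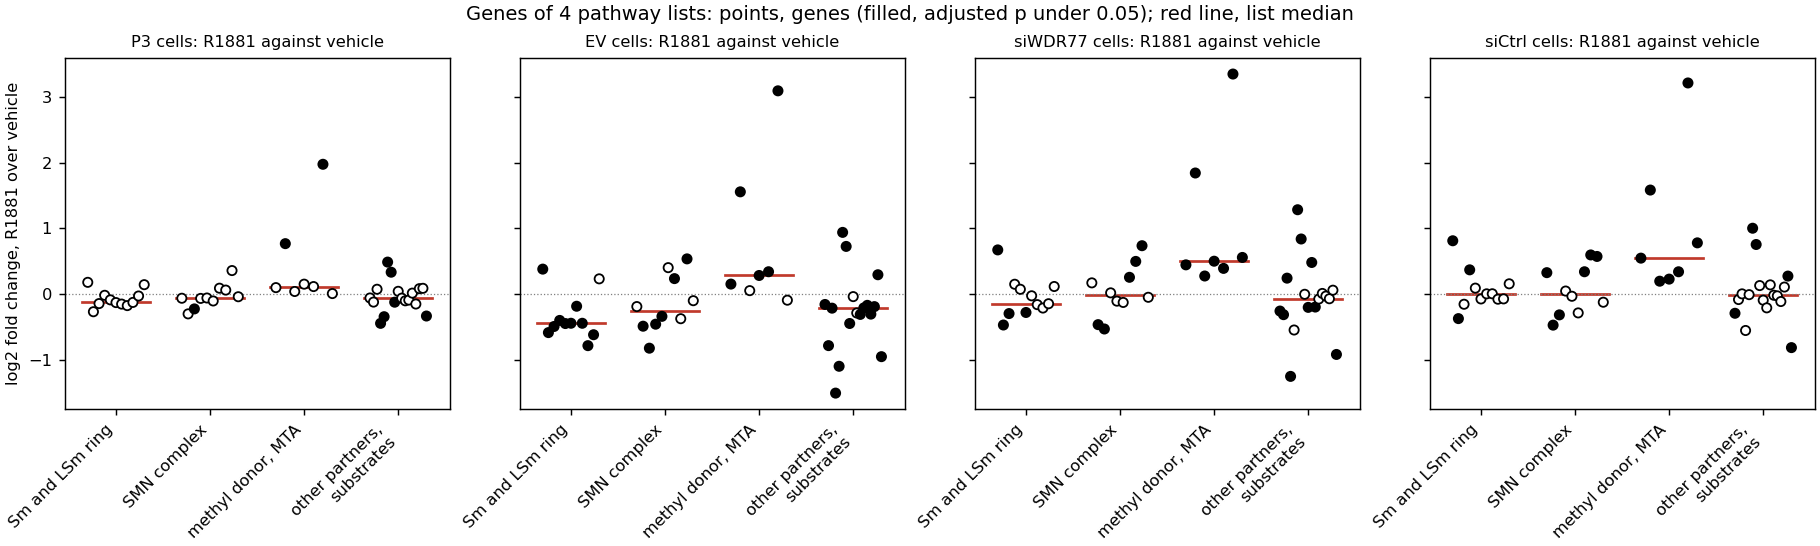
Log2 fold change of R1881 over vehicle for the genes of 4 lists around the methylosome, by arm (y axis, log2). Points are genes, filled where the adjusted p is under 0.05, and red lines are list medians; no Sm and LSm ring gene is filled in P3 cells (5 were called without TMM factors), where the median is -0.13, and 10 of 11 are filled in EV cells, where it is -0.45.

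In the SMN complex 1 of 10 genes fell in P3 cells, and 2 rose and 4 fell in EV cells, where 21% and 51.4% of all genes were called. Without TMM factors 3 fell in P3 cells and 6 in EV cells, and none rose. The 1 gene in P3 cells was GEMIN4 (-0.23 ± 0.061, edgeR adjusted p = 0.00468), which fell further in EV cells (-0.83 ± 0.062, edgeR adjusted p = 7.5e-15), with a difference of 0.60 ± 0.087 (edgeR adjusted p = 7.77e-07). In siWDR77 cells 3 rose and 2 fell, and in siCtrl cells 4 rose and 2 fell (53.2% and 51.1% of all genes); without TMM factors none rose in these arms, and 5 and 3 fell. SMN1 and SMN2 are near-identical copies, so their counts are uncertain.

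In the methyl donor list 2 of 7 genes rose in P3 cells, 5 in EV cells and all 7 in both siRNA study arms, against 2, 2, 5 and 4 in P3, EV, siWDR77 and siCtrl cells without TMM factors, when 2 also fell in EV cells. Of all genes, 13% were called higher in P3, 24.9% in EV, 27.7% in siWDR77 and 25.7% in siCtrl cells. SMS, spermine synthase, rose by 1.98 ± 0.052 in P3 cells and by 3.10 ± 0.053 in EV cells (edgeR adjusted p = 1.66e-29 and 1.55e-36). AMD1, which makes decarboxylated S-adenosylmethionine, rose by 0.77 ± 0.046 in P3 cells and by 1.56 ± 0.047 in EV cells (edgeR adjusted p = 2.31e-17 and 2.49e-28). Both responses were smaller in P3 than in EV cells (-1.12 ± 0.071 and -0.79 ± 0.065, edgeR adjusted p = 5.22e-16 and 8.24e-13). After the siRNA, in R1881, AHCY, which clears S-adenosylhomocysteine, was lower in siWDR77 than in siCtrl cells (-0.28 ± 0.059, edgeR adjusted p = 0.0039). SRM, spermidine synthase, was lower too (-0.38 ± 0.083, edgeR adjusted p = 0.00832), while SMS was higher (0.24 ± 0.063, edgeR adjusted p = 0.0199). Thus 1 of the 7 genes was called higher and 2 lower in R1881, against 7.22% of all genes called. In vehicle 0 of the 7 were called, against 1.53% of all genes.

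Of the 17 other partners and substrates, 2 rose and 4 fell with R1881 in P3 cells, 3 rose and 12 fell in EV cells, 4 rose and 6 fell in siWDR77 cells, and 3 rose and 2 fell in siCtrl cells. The shares of all genes called were 21%, 51.4%, 53.2% and 51.1% in P3, EV, siWDR77 and siCtrl cells. Without TMM factors 2 rose and 9 fell in P3 cells, 3 rose and 13 fell in EV cells, 2 rose and 13 fell in siWDR77 cells, and 2 rose and 11 fell in siCtrl cells. E2F1, a cell cycle transcription factor, fell in P3 cells (-0.45 ± 0.065, edgeR adjusted p = 6.75e-07) and further in EV cells (-1.51 ± 0.069, edgeR adjusted p = 6.66e-22), with a difference of 1.06 ± 0.095 (edgeR adjusted p = 8.03e-12). GOLGA2, a Golgi matrix protein gene, rose in all 4 arms: in P3 (0.49 ± 0.058, edgeR adjusted p = 8.39e-09), EV (0.94 ± 0.058, edgeR adjusted p = 1.06e-17), siWDR77 (1.29 ± 0.064, edgeR adjusted p = 1.01e-14) and siCtrl cells (1.0 ± 0.064, edgeR adjusted p = 1.53e-12). With siWDR77 against siCtrl, 1 rose and 5 fell in R1881 and 1 fell in vehicle, against 7.22% and 1.53% of all genes called. CCND1, cyclin D1, was lower in both (-0.28 ± 0.052 in R1881 and -0.31 ± 0.052 in vehicle, edgeR adjusted p = 0.0016 and 0.00108). CDK4, its kinase partner, was lower in R1881 (-0.36 ± 0.071, edgeR adjusted p = 0.00269).

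PRMT5-AS1 is annotated antisense to PRMT5 and shares 938 exon bases with it. It had 0 to 28 counts per library, 196 in all, against 42251 for PRMT5. It was called once, higher in P3_R1881 (28, 16 and 9 counts) than in EV_R1881 (5, 2 and 5 counts; 1.96 ± 0.62, edgeR adjusted p = 0.0105). Without a stated strand setting, reads of PRMT5-AS1 and PRMT5 cannot be told apart in the shared bases. CAGE1 shares 248 exon bases with RIOK1 and had 266 counts in all, against 6516 for RIOK1, and AL390195.1 shares 673 with WDR77 and had 246, against 24058.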

How the data were processed

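The authors deposited 1 table of unnormalized counts of reads for 60649 features. Per the submitters' processing notes, bcl2fastq 2.20, STAR 2.7.9a, featureCounts, Subread 1.6.4 and GRCh38.p7 were used; the handling of strand and of multi-mapped reads is not given in the sources used here, nor is the release of the gene annotation. The headers of 3 P3_R1881 columns include siRNA, and these columns were assigned through their sample numbers to titles that name P3 only.

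The counts were tested with edgeR 4.0.16 (R 4.3.3): TMM scaling, filterByExpr, 1 mean per group, no covariate, robust quasi-likelihood F test, fitted once per study to its 12 libraries (17772 genes in study 1, 17893 in study 2). Calls are at an adjusted p under 0.05 (Benjamini-Hochberg, over all genes tested). The edgeR fit was tested on simulated data. Levels are TMM-scaled CPM within each study, so levels are not compared between studies by a test. The p-values set differences of group means against the spread between triplicates, which is estimated over all libraries of a fit. No libraries of a group agreed within sampling noise. Correlations used log2(CPM + 0.5). Coordinates and exon lengths come from GENCODE 29.

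Named were the members, in each list those with the 2 smallest adjusted p (not all are printed; a gene named in 1 arm may recur in another), overlapping genes, KLK3 and FKBP5, and the 5 genes most like WDR77 and PRMT5. Members and lists were chosen with earlier results of these data known. Alternatives were RLE, no filter, DESeq2 1.42.0, the sample-number run as a block, only the 6 libraries compared, 24 libraries in 1 fit, leaving out each library, another length per gene, and, chosen after seeing the data, library totals without TMM factors and the comparison of control arms.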

Additional observations from a re-analysis of the deposited data

Results flagged for a closer look

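The response to R1881 differed between P3 and EV cells for 3 members, by the test of the difference itself: WDR77 by 0.71, CLNS1A by 0.31 and PRMT5 by 0.23 on the log2 scale, each higher in P3. The PRMT5 value lost its call under RLE, DESeq2, the fit over 24 libraries and 7 of 12 leave-outs. With R1881, WDR77 rose in P3 cells and was not called in EV cells. CLNS1A and PRMT5 fell in EV cells and were not called in P3 cells.

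The response also differed between siCtrl and EV cells, for COPRS by 0.61, PRMT5 by 0.54 and WDR77 by 0.53, each higher in siCtrl. These arms belong to different studies, and the study and the transfected material cannot be told apart.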

How the results depend on the processing

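Apart from leaving out single libraries, 354 of 367 values kept their call, and with a library left out 405 of 420 did; 15 and 25 of these were not called and changed sign. With library totals in place of TMM factors (chosen after seeing the data), PRMT5 in siWDR77 cells turned to -0.042 with R1881 and lost its call, the members called in vehicle between P3 and EV went to 0, and those called in R1881 went to 4. Leaving out single libraries gave 0 to 1 members called in vehicle between P3 and EV. Per length, WDR77 stood above CLNS1A in 3 groups with the longest transcript, against 6 with all exons, and above PRMT5 in 0 groups, against 1. The cause of these changes was not tested beyond the change of scale or length. Over all genes, siWDR77 against siCtrl in vehicle gave 273 calls, and 127 with only the 6 libraries, 422 with no filter, 466 with DESeq2, 491 in the fit over 24 libraries, 478 without siCtrl_vehicle S35, 143 without S21, 105 without siWDR77_vehicle S37 and 91 without S9. In R1881 it gave 1291 calls, and 1849 with only the 6 libraries, 1744 in the fit over 24 libraries and 1618 with DESeq2. It gave 587 without siCtrl_R1881 S22, 735 without S36, 749 without S8, 752 without siWDR77_R1881 S24 and 737 without S38. P3 against EV in vehicle gave 2809 calls, and 3717 with the sample-number run as a block and 3124 without P3_vehicle S19. It gave 1709 without EV_vehicle S1, 1825 without S15 and 1344 without P3_vehicle S5. No label pairs the sample numbers: libraries of the same run of numbers had median correlations of their deviations of 0.0332 in study 1 and 0.0428 in study 2, with 4 and 2 of 18 pairs over 0.1. Between libraries of different runs the medians were -0.021 and -0.0199, with 0 and 3 of 36 pairs over 0.1. Adding the run as a replicate block changed the call of no member. RIOK1 had the fewest counts (185 to 432 per library), which limits its precision.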
